A study of Homo sapiens with 6 samples.

Results

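Polycomb complex genes encode the subunits of 2 chromatin-modifying assemblies, PRC1 and PRC2, and were examined in human induced pluripotent stem cell (hiPSC) aggregates grown with or without 2 medium additives. The genes were taken from a list of subunit symbols and matched by Ensembl identifier through GENCODE 44. All 36 listed genes were found among the 19977 genes of the count files, 13 encoding PRC2 subunits and 23 encoding PRC1 subunits.

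PRC2 places methyl groups on lysine 27 of histone H3 (H3K27) through the enzymes EZH1 or EZH2, which work only in a core with EED and SUZ12, and accessory subunits guide that core to CpG-rich DNA. PRC1 attaches ubiquitin to a lysine of histone H2A (H2AK119) through RING1 or RNF2 paired with a PCGF protein. Canonical PRC1 carries CBX and PHC proteins, which read methylated H3K27 and compact chromatin, whereas variant PRC1 carries RYBP or YAF2 with other partners. In pluripotent cells these complexes are known for holding genes of later lineages silent while keeping them ready for use.

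The cells were NCRM-1, an established hiPSC line made from cord blood CD34+ cells with episomal vectors and labelled wild type, so each result describes a single line. They were dissociated, seeded in E8 medium in vertical wheel bioreactors and grown as floating aggregates until day 4, with 50% of the medium exchanged on day 2. In the PEG and HS group the medium also held polyethylene glycol (PEG, a water-soluble polymer) at 10 mg/ml and heparin sodium salt (HS, a sulphated polysaccharide that stabilises FGF2) at 0.1 µg/ml, and the E8 control group had neither additive. Each group had 3 libraries of polyadenylated RNA. The labels speak of 1 bioreactor for each medium, so that medium and vessel cannot be told apart. The p-values then measure only the spread between libraries, which may be technical. The general treatment text of the labels describes PEG and heparin for all 6 libraries, and the treatment given for each single library was followed.

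The libraries held 26991279 to 36185138 counts. All 11 pluripotency markers examined were above 1 CPM (the library's counts scaled to 1000000) in every library. Their summed level was 8286 to 8452 CPM with the additives and 8158 to 8284 CPM in E8 control. That sum joins opposite shifts, as 5 were called higher and 3 lower (72.7%, beside 25.3% of all tested genes, calls defined below). NANOG went from 126 to 185 CPM with the additives and SOX2 from 412 to 273 CPM. Of 15 neural plate markers, 10 were called lower in PEG and HS and 1 higher (73.3%, beside 25.3% of all tested genes). Their summed level was 610.2 to 653 CPM against 827 to 860.2 CPM, and none was at 0 throughout. NES alone gave 543 ± 20.5 (SD) against 643 ± 14.0 CPM, so most of that sum is 1 gene. Trophectoderm and amnion markers summed to 18.7 to 19.9 CPM against 34.2 to 36.7 CPM, with CGA at 0 in every library, and endoderm markers to 5.20 to 5.73 CPM against 6.68 to 7.41 CPM. Mesoderm markers went the other way, with sums of 67.1 to 70.2 CPM against 61.8 to 66.1 CPM. KDR alone gave 59.8 ± 1.74 against 52.4 ± 1.65 CPM of that sum. The part of these marker shifts in the results on Polycomb genes was not tested. In bulk RNA, fewer cells expressing a gene and less RNA per cell cannot be told apart.

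All 36 Polycomb genes were detected above 1 CPM in every library and all passed the filter on low counts. 13 of the 36 (36.1%) were called different between media, meaning a Benjamini-Hochberg adjusted p under 0.05 from the quasi-likelihood test of edgeR, 3 higher and 10 lower in PEG and HS. Of all 16505 genes tested, 25.3% were called, 12.2% higher and 13.1% lower. Among the 13557 tested genes with a mean of at least 1 CPM, a background chosen after seeing the data because each Polycomb gene exceeded that level, 29.6% were called, 14.6% higher and 15.0% lower. The share of Polycomb genes called was therefore near that of other well-counted genes, while the calls were unevenly split by direction. The median log2 fold change of the 36 was 0.010, beside 0.003 for all tested genes.

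The 3 genes that rose were EPOP, JARID2 and PHC1. The 10 that fell were LCOR and AEBP2 of PRC2 and RING1, BMI1, CBX6, CBX7, PHC2, BCOR, BCORL1 and AUTS2 of PRC1. The 3 libraries of 1 medium lay wholly above those of the other for 19 of the 36 genes, 6 of them higher and 13 lower in PEG and HS. Of all tested genes, 39.3% separated in this way, 19.5% higher and 19.8% lower. Of those with a mean of at least 1 CPM, 43.8% did, 22.4% higher and 21.3% lower. Most differences were small. Only AUTS2 passed the stricter test against a change of 1.5-fold (adjusted p = 2.45e-05, edgeR glmTreat), a test that called 1.60% of all genes. DESeq2, which called 20.6% of all genes, also called 3 of the 36 higher and 10 lower.

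**Figure D1:**
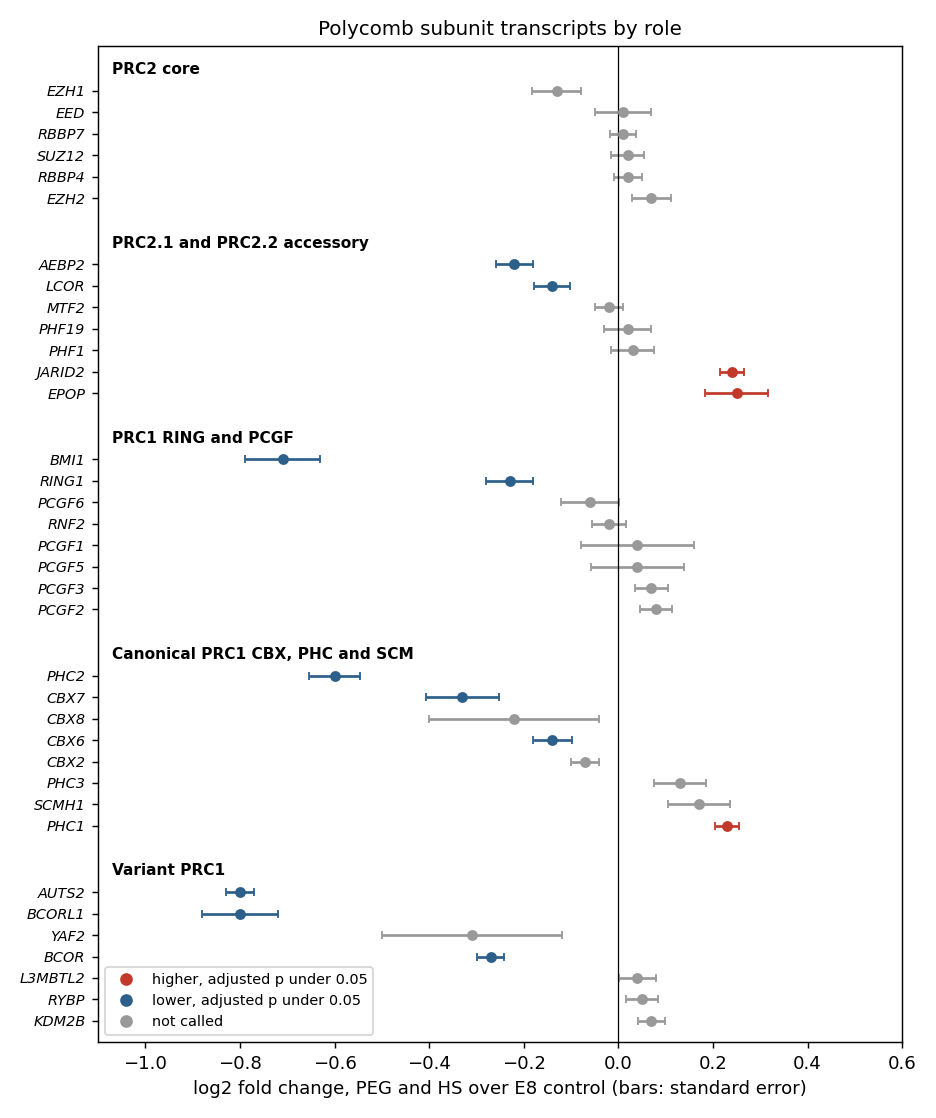
Log2 fold change of each Polycomb complex gene, PEG and HS over E8 control, on the horizontal axis with its standard error from edgeR as a bar, grouped by role in PRC2 and PRC1 (3 libraries per medium), genes called higher in red, lower in blue and not called in grey. The 6 core genes of PRC2 lie close to 0, from -0.13 to 0.07, while AUTS2 and BCORL1 of variant PRC1 lie at -0.80 and BMI1 at -0.71.

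None of the 6 PRC2 core genes was called. The 95% intervals of their changes ran from a log2 of -0.24 to 0.16, which is 0.849 to 1.12 times the E8 control level, so a larger change in any single core gene lay outside these intervals. EZH2, the methyltransferase that dominates in dividing cells, stood at 94.7, 92.0 and 89.4 CPM with the additives and at 94.0, 83.2 and 86.0 CPM in E8 control (log2 0.07 ± 0.042 SE, adjusted p = 0.236). The 2 sets of EZH2 libraries overlapped. EED, which binds methylated H3K27 and stimulates the enzyme, stood at 29.2, 25.6 and 25.2 CPM against 25.4, 27.1 and 27.1 CPM (log2 0.01 ± 0.060, adjusted p = 0.959). SUZ12, the scaffold on which accessory subunits assemble, stood at 70.3, 68.1 and 65.9 CPM against 67.9, 65.7 and 68.0 CPM (log2 0.02 ± 0.035, adjusted p = 0.743). Both genes overlapped between media. The histone-binding subunits RBBP4 and RBBP7, which also serve other complexes, had log2 fold changes of 0.02 and 0.01 (adjusted p = 0.725 and 0.782).

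EZH1, the less active methyltransferase, was the core gene whose libraries did not overlap. It measured 28.2, 28.1 and 25.4 CPM with the additives and 30.2, 29.7 and 29.2 CPM in E8 control, with a log2 fold change of -0.13 ± 0.052 that missed the threshold (adjusted p = 0.0894). The ratio of EZH2 to EZH1 within a library does not depend on how libraries are scaled. On the log2 scale of counts it averaged 1.76 ± 0.055 (SD, n = 3) in PEG and HS and 1.56 ± 0.077 in E8 control, a difference of 0.20 with no overlap. The two-sided exact permutation test gave p = 0.100, the smallest that 3 against 3 allows, so this design cannot reach 0.05 for any ratio. Per kilobase of exon, EZH2 made up 68.7% ± 0.819 of the EZH1 and EZH2 sum in PEG and HS and 65.7% ± 1.20 in E8 control (exact permutation p = 0.100).

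Of the 7 accessory subunits of PRC2, 4 were called, 2 higher and 2 lower (57.1%, beside 25.3% of all tested genes and 29.6% of those with a mean of at least 1 CPM). Nothing particular to so few genes is read from this share. Each direction took in a subunit of both PRC2 subtypes. PRC2.1 holds a Polycomb-like protein (PHF1, MTF2 or PHF19) together with EPOP or LCOR, and PRC2.2 holds JARID2 and AEBP2.

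JARID2 (ENSG00000008083, chromosome 6, 15246069 to 15522042, GRCh38), which recruits PRC2 to sites bearing ubiquitinated H2A, was the most abundant accessory subunit per kilobase of exon. It measured 557, 557 and 566 CPM with the additives and 469, 469.9 and 488 CPM in E8 control. The highest control library lay well below the lowest PEG and HS library, and the rise was 1.18-fold (log2 0.24 ± 0.026, adjusted p = 6.20e-06). AEBP2 (ENSG00000139154, chromosome 12, 19404045 to 19720801), its partner in PRC2.2, moved the other way. It stood at 54.6, 50.5 and 54.6 CPM against 61.8, 61.4 and 63.3 CPM, which was 1.17-fold lower with no overlap (log2 -0.22 ± 0.039, adjusted p = 5.59e-04). The log2 ratio of JARID2 to AEBP2 was 3.39 ± 0.059 in PEG and HS and 2.94 ± 0.012 in E8 control, a 1.37-fold shift given without a test because the pair was chosen after its values were seen.

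The PRC2.1 subunits EPOP and LCOR, which exclude each other, moved in opposite directions too. EPOP (ENSG00000273604, chromosome 17, 38671703 to 38674957), which links PRC2.1 to elongin BC, rose 1.19-fold. Its libraries measured 16.4, 17.1 and 17.3 CPM with the additives and 15.3, 14.6 and 13.1 CPM in E8 control (log2 0.25 ± 0.066, adjusted p = 0.0129). The groups did not overlap, but without the third E8 control library, the lowest, the call was lost (adjusted p = 0.0718). LCOR (ENSG00000196233, chromosome 10, 96832254 to 96995956), whose longer product is the PRC2 partner PALI1, fell 1.11-fold, from 55.7, 56.1 and 57.0 CPM in E8 control to 48.8, 52.2 and 51.8 CPM (log2 -0.14 ± 0.038, adjusted p = 0.0105). Counts per gene do not separate PALI1 from the shorter LCOR corepressor, and the LCOR call was lost without the first PEG and HS library (adjusted p = 0.0632). The 3 Polycomb-like proteins, which bring PRC2.1 to unmethylated CpG sites, were not called. Their log2 fold changes were 0.03 for PHF1, -0.02 for MTF2 and 0.02 for PHF19 (adjusted p = 0.699, 0.720 and 0.820).

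**Figure D2:**
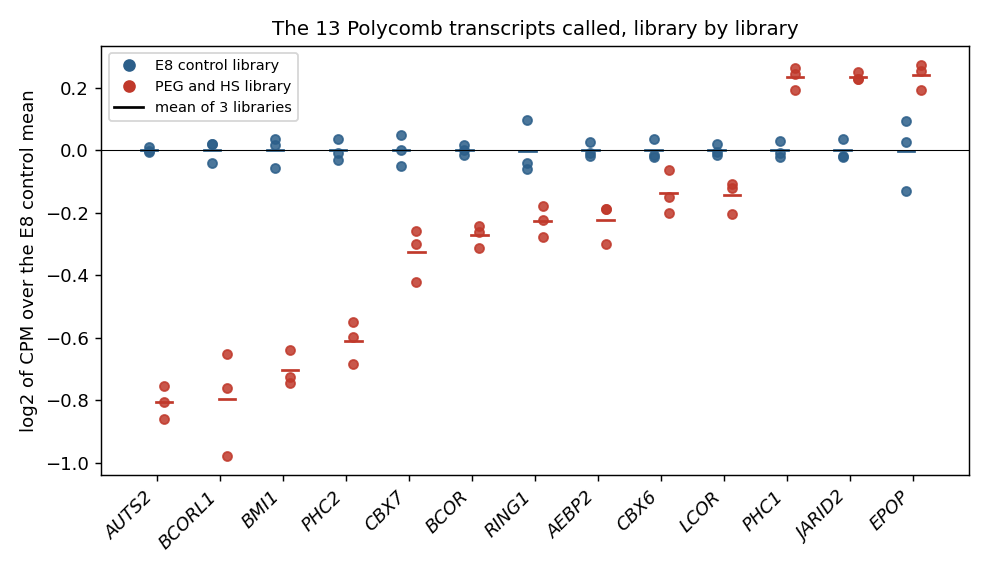
Log2 of the CPM of each library over the E8 control mean (vertical axis) for the 13 Polycomb complex genes called different, E8 control libraries in blue, PEG and HS libraries in red and the mean of 3 libraries as a line. The media do not overlap for any of the 13 genes, from the small gap of CBX6 (highest PEG and HS library 52.3 CPM, lowest E8 control library 53.8 CPM) to that of AUTS2 (172 against 289 CPM).

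In PRC1, one of the paired catalytic paralogs was called and the other was not. RNF2 (RING1B), the main H2AK119 ubiquitin ligase in pluripotent cells, stood at 49.2, 50.5 and 50.6 CPM with the additives and at 51.3, 49.7 and 51.3 CPM in E8 control (log2 -0.02 ± 0.036, adjusted p = 0.753). RING1 (RING1A; ENSG00000204227, chromosome 6, 33208500 to 33212722), its paralog, fell 1.17-fold from 35.5, 39.5 and 35.9 CPM to 30.5, 32.7 and 31.7 CPM (log2 -0.23 ± 0.050, adjusted p = 0.00355). Its media did not overlap, while those of RNF2 did. The log2 ratio of RNF2 to RING1 was higher in every PEG and HS library, at 0.66 ± 0.033 against 0.46 ± 0.11 (difference 0.21, exact permutation p = 0.100, the smallest possible).

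PCGF proteins decide which form of PRC1 is built, with BMI1 (PCGF4) and PCGF2 marking the canonical form. BMI1 (ENSG00000168283, chromosome 10, 22321099 to 22331484) was the only called gene of the 6 PCGF genes. Its libraries measured 5.66, 6.09 and 5.73 CPM with the additives and 9.12, 9.73 and 9.59 CPM in E8 control. The groups lay far apart, and the fall was 1.63-fold (log2 -0.71 ± 0.079, adjusted p = 7.43e-06). BMI1 shares 21.59% of its transcript sequence with COMMD3-BMI1, a readthrough gene annotated across it, for which 2 libraries held 13 and 47 counts and the others none. With both genes' counts added, an alternative chosen after seeing the data, the log2 fold change was -0.74 ± 0.086 (adjusted p = 1.18e-05).

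PCGF2 (MEL18), the paralog of BMI1, was not called. It measured 103, 105 and 97.0 CPM with the additives and 96.9, 95.6 and 94.6 CPM in E8 control, with no overlap but no call (log2 0.08 ± 0.034, adjusted p = 0.0882). Of the PCGF2 exon sequence, 61.51% lies opposite exons of CISD3 on the other strand, and whether strand was used in counting is not given in the sources used here, although CISD3 itself gave 13.9 ± 0.722 CPM with the additives and 14.1 ± 0.520 CPM in E8 control. The log2 ratio of BMI1 to PCGF2 went from -3.33 ± 0.063 in E8 control to -4.12 ± 0.051 in PEG and HS, a 1.72-fold shift (exact permutation p = 0.100). The PCGF proteins of variant PRC1 were not called: PCGF1 had a log2 fold change of 0.04, PCGF3 of 0.07, PCGF5 of 0.04 and PCGF6 of -0.06 (adjusted p = 0.860, 0.155, 0.803 and 0.499).

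PHC proteins polymerise through their SAM domains and cluster canonical PRC1. The 2 called PHC genes moved in opposite directions. PHC1 (ENSG00000111752, chromosome 12, 8913896 to 8941467) rose 1.18-fold, with libraries at 1417, 1437 and 1368 CPM with the additives and 1222, 1189 and 1178 CPM in E8 control (log2 0.23 ± 0.026, adjusted p = 7.48e-06). PHC2 (ENSG00000134686, chromosome 1, 33323623 to 33431095) fell 1.52-fold, from 26.4, 25.6 and 25.2 CPM in E8 control to 17.0, 16 and 17.6 CPM (log2 -0.60 ± 0.054, adjusted p = 7.64e-07). Neither gene overlapped between media. The log2 ratio of PHC1 to PHC2 was 6.38 ± 0.10 against 5.54 ± 0.0081, a 1.79-fold shift and the largest of the 10 paralog ratios computed (exact permutation p = 0.100). PHC3 stood between them with a log2 fold change of 0.13 (adjusted p = 0.111).

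The level of PHC1 is uncertain in 1 respect. Of its transcript sequence, 43.88% recurs in the pseudogene PHC1P1, not analysed here, so the counting of shared reads could affect it. A further 18.05% of its exon sequence lies opposite M6PR, whose own level hardly differed (112 ± 2.98 against 112 ± 1.16 CPM). PHC2 shares no 31-base word with transcripts of another gene.

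Because the PHC pair moved in opposite directions, their upstream sequences are shown. Each line gives 250 bases before an annotated RefSeq start (GRCh38.p14), 5′ to 3′ on the strand of the gene, with the capitals marking exact matches, on either strand, of GGGCGG (the GC box bound by SP factors, CCGCCC on the other strand), CATTGT (a SOX core, ACAATG on the other strand), CACGTG (E-box) and the octamer ATGCAAAT. The first PHC1 start has chr12:8913593-8913842 upstream and the second, within the gene, chr12:8914259-8914508, both on the plus strand. The first PHC2 start has chr1:33431096-33431345 upstream and the second, within the gene, chr1:33349900-33350149, both on the minus strand.
PHC1 first start: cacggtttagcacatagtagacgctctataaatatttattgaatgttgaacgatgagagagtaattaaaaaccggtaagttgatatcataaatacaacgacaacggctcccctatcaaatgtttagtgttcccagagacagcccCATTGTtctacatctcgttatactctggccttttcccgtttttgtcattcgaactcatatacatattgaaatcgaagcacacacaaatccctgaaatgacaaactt
PHC1 second start: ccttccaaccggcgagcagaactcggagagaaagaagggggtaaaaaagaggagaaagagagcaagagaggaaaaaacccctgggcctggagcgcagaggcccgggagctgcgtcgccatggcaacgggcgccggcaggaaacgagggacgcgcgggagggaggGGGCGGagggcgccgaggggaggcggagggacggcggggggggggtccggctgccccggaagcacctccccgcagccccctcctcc
PHC2 first start: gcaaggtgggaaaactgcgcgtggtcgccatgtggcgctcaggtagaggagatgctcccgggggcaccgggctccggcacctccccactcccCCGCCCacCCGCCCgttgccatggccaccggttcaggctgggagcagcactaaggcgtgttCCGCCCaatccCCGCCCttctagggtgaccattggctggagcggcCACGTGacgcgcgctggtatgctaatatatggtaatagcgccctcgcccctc
PHC2 second start: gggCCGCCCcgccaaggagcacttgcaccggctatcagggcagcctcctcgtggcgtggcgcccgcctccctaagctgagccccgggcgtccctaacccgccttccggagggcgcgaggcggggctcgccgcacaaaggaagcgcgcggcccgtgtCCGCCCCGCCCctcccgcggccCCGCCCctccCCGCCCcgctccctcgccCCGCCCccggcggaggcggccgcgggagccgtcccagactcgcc

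In content of G and C the 2 PHC1 windows differed more from each other than the PHC2 windows did. The first held 37.6% G and C, 10 CpG dinucleotides and 1 CATTGT, and the second 70.4%, 23 CpG and 1 GGGCGG. The PHC2 windows held 66.8% and 80.4% G and C, with 4 and 6 matches of GGGCGG, of which a pair in the second window shared 1 base, and 1 CACGTG in the first. Counts per gene do not tell which start was used.

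Upstream windows were found for 33 of the 36 genes, 50 windows in all. Their median content of G and C was 73.4%, with a median of 31.5 CpG dinucleotides, against 58.0% and 11 in 34943 windows of the same table. GGGCGG was present in 40 of the 50 (80.0%) and in 42.5% of all windows, CACGTG in 7 (14.0%) against 6.32%, CATTGT in 4 (8.0%) against 9.30%, and ATGCAAAT in 0 against 1.63%. Windows of the same gene are not independent, and a match is a description of the letters only.

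CBX proteins give canonical PRC1 its chromodomain, which binds H3K27 trimethylation. CBX7 (ENSG00000100307, chromosome 22, 39120167 to 39152680), known as the main CBX protein of mouse embryonic stem cells, fell 1.25-fold. Its libraries measured 7.0, 7.61 and 7.83 CPM with the additives and 9.04, 9.70 and 9.37 CPM in E8 control (log2 -0.33 ± 0.077, adjusted p = 0.00565), and its media did not overlap. CBX6 (ENSG00000183741, chromosome 22, 38861422 to 38872249) fell 1.1-fold, from 56.1, 54.1 and 53.8 CPM to 49.3, 52.3 and 47.6 CPM (log2 -0.14 ± 0.041, adjusted p = 0.0236). That call was lost in more alternatives than any other of the 13, namely without the first or the third PEG and HS library or the first E8 control library (adjusted p = 0.0804, 0.110 and 0.0800). CBX2, the most abundant of CBX2, CBX6, CBX7 and CBX8 per kilobase of exon, measured 219, 227 and 215 CPM against 228, 238 and 229 CPM, which did not overlap but was not called (log2 -0.07 ± 0.030, adjusted p = 0.0994). CBX8, with only 51 to 77 counts in each library, had a log2 fold change of -0.22 with an interval of -0.60 to 0.16, so a change of moderate size was not detectable at this depth. SCMH1, a SAM domain protein that joins PHC polymers, measured 16.3, 17.0 and 15.4 CPM against 15.3, 14.3 and 13.6 CPM (log2 0.17 ± 0.066, adjusted p = 0.0681).

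Of the 7 variant PRC1 genes, 3 were called, all lower (42.9%, beside 13.1% of all tested genes called lower and 15.0% of those with a mean of at least 1 CPM), and nothing particular to the group is read from this count. AUTS2 (ENSG00000158321, chromosome 7, 69598296 to 70793506), which joins PRC1 complexes with PCGF3 or PCGF5 and is known from neural development for accompanying gene activation, fell 1.75-fold. Its libraries measured 166, 172 and 160.0 CPM with the additives and 289.6, 289 and 292 CPM in E8 control (log2 -0.80 ± 0.030, adjusted p = 2.82e-11). The highest PEG and HS library was still far below the lowest control library, and by absolute log2 fold change AUTS2 ranked 1096 of the 16505 genes tested.

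BCORL1 (ENSG00000085185, chromosome X, 129981107 to 130058071) and BCOR (ENSG00000183337, chromosome X, 40049815 to 40177329) are alternative scaffolds of the PCGF1 complex, which the CpG-binding protein KDM2B anchors to DNA. BCORL1 fell 1.74-fold, from 14.1, 13.5 and 14.1 CPM to 7.06, 8.85 and 8.21 CPM (log2 -0.80 ± 0.080, adjusted p = 2.50e-06). BCOR fell 1.21-fold, from 177.3, 173.4 and 174.9 CPM to 146, 148 and 141 CPM (log2 -0.27 ± 0.029, adjusted p = 4.21e-06). Both fell without overlap. The log2 ratio of BCOR to BCORL1 was 4.17 ± 0.17 in PEG and HS and 3.65 ± 0.026 in E8 control (difference 0.52, 1.44-fold, exact permutation p = 0.100).

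The other 4 variant PRC1 genes were not called. KDM2B measured 174, 179.8 and 174 CPM with the additives and 168, 165 and 169 CPM in E8 control, higher without overlap but not called (log2 0.07 ± 0.028, adjusted p = 0.0649). RYBP, which binds ubiquitinated H2A, had a log2 fold change of 0.05 (adjusted p = 0.311), and L3MBTL2, the defining subunit of the PCGF6 complex, of 0.04 (adjusted p = 0.470). YAF2, the paralog of RYBP, was the rarest of the 36 with 323 counts over all libraries. It measured 1.33, 1.56 and 1.65 CPM against 2.08, 1.88 and 1.69 CPM, with an interval of the log2 fold change of -0.71 to 0.09 (adjusted p = 0.266).

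**Figure D3:**
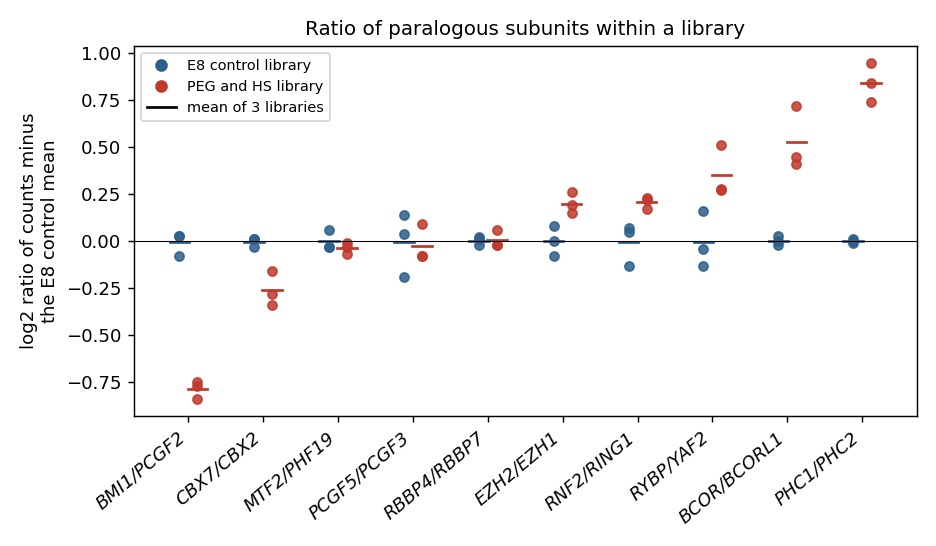
Log2 ratio of the counts of 2 paralogs within a library, minus the E8 control mean of that ratio (vertical axis), for 10 pairs, with E8 control libraries in blue, PEG and HS libraries in red and the mean of 3 libraries as a line. 7 of the 10 pairs do not overlap between media, with PHC1/PHC2 shifted by 0.84, BMI1/PCGF2 by -0.78 and BCOR/BCORL1 by 0.52, while RBBP4/RBBP7 lies at 0.00. Of single tested genes, 39.3% do not overlap.

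Of the 10 pairs, 7 did not overlap between media, each at p = 0.100 by the two-sided exact permutation test and 0.143 after Benjamini-Hochberg adjustment over the 10 pairs. Of single tested genes, 39.3% separated between media, and the share over all gene pairs was not computed. Pairs that hold RING1, BMI1, CBX7, PHC1, PHC2, BCOR or BCORL1 partly restate calls already given. The pairs not yet given were CBX7 to CBX2, which fell from -4.62 ± 0.024 to -4.88 ± 0.093 in log2 counts, and RYBP to YAF2, at 5.88 ± 0.14 against 5.53 ± 0.15. In the same exact permutation test, the 3 pairs that overlapped were RBBP4 to RBBP7 (difference 0.00, p = 0.900), MTF2 to PHF19 (-0.04, p = 0.5) and PCGF5 to PCGF3 (-0.02, p = 0.900).

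Levels of different genes were compared as CPM per kilobase of merged exon sequence. On this scale PHC1 was the most abundant of the 36, at 195 in E8 control and 229 in PEG and HS, and it ranked 122 of the 16473 tested genes with a known length. JARID2 followed at 76.2 and 89.6, then CBX2 at 40.8 and 38.9, RBBP4 at 32.7 and 33.1 and PCGF2 at 27.3 and 28.9. The 2 leading genes were among those that rose, but direction did not follow level throughout. In E8 control EPOP, which also rose, stood below RING1, BCOR, AUTS2, AEBP2, CBX6 and PHC2, which all fell. The other genes that fell, LCOR, BMI1, BCORL1 and CBX7, stood below EPOP. EZH2 stood at 8.14 and 8.55, EZH1 at 4.25 and 3.90 and EED at 3.79 and 3.81. The called genes BMI1 (2.16 and 1.33), BCORL1 (1.74 and 1.01) and CBX7 (1.25 and 1.0) lay near the lower end, above PCGF5, CBX8 and YAF2 (0.731, 0.506 and 0.174 in E8 control). These levels depend on the length used. Per kilobase of the longest transcript, AUTS2 went from 11.6 to 38.8 in E8 control, EZH2 from 8.14 to 19.5, EED from 3.79 to 9.59 and EZH1 from 4.25 to 6.41. PHC1, JARID2, CBX2 and RBBP4 led in this order on both scales, but AUTS2 (38.8) and RBBP7 (34.5) then came before PCGF2 (31.3).

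**Figure D4:**
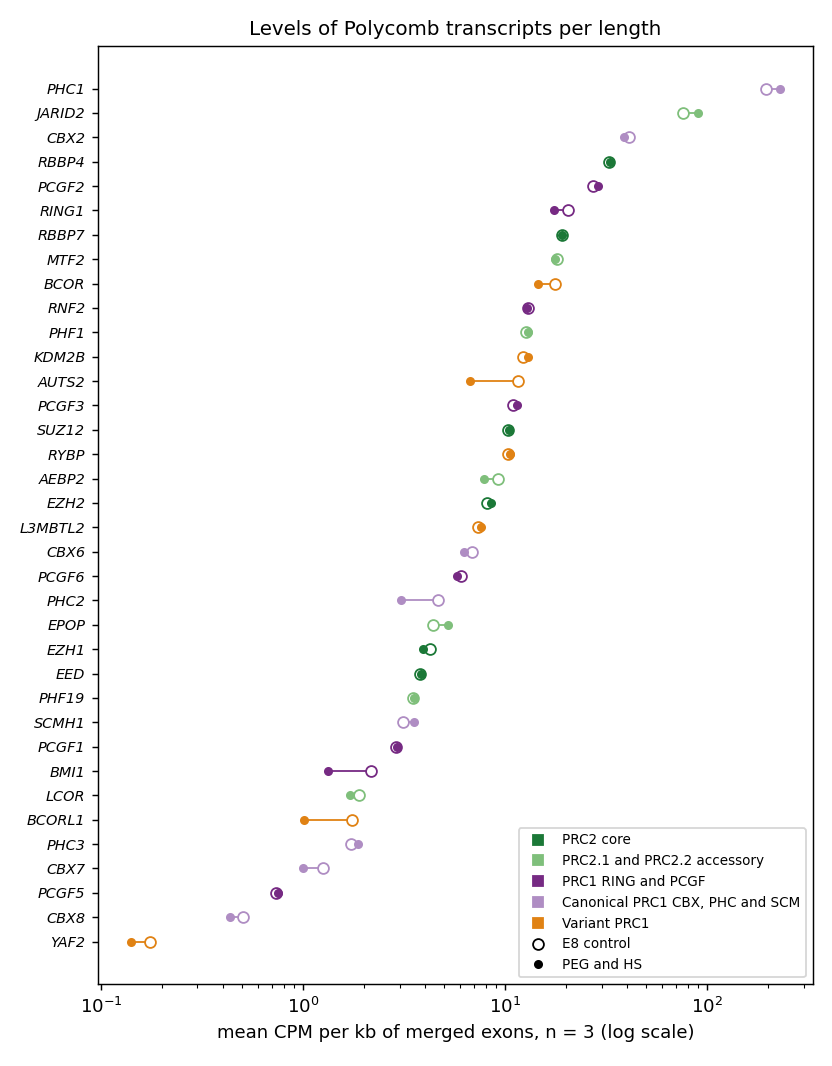
Mean level of the 36 Polycomb complex genes in CPM per kilobase of merged exon sequence, on a log axis, in E8 control (open circles) and in PEG and HS (filled circles; 3 libraries each), coloured by role and ordered by the E8 control level. PHC1 leads at 195 in E8 control and YAF2 comes last at 0.174.

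Within families the same scale gives the composition of each pool of transcripts. PHC1 made up 97.9% ± 0.0989 of the PHC family in PEG and HS and 96.8% ± 0.0485 in E8 control, and PHC2 1.30% ± 0.0929 and 2.30% ± 0.0129. CBX2 made up 83.5% ± 0.229 and 82.6% ± 0.343 of the 4 CBX genes, and CBX7 2.15% ± 0.143 and 2.54% ± 0.0528. PCGF2 held 56.5% ± 1.15 and 54.6% ± 0.531 of the PCGF family, against 2.6% ± 0.107 and 4.32% ± 0.222 for BMI1. None of these shares overlapped between media (each exact permutation p = 0.100, adjusted over 15 shares 0.167), and in both media the same gene led its family. The shares of PCGF1, PCGF5, PCGF6, CBX6, CBX8 and PHC3 overlapped.

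The partners and opponents of the complexes came from a list of other genes of the pathway. Of 24 tested genes for other PRC1 and PRC2 partners, 4 were called higher and 1 lower (20.8%, beside 25.3% of all tested genes). L3MBTL3, a reader of methylated lysine, rose the most, from 28.5 ± 1.25 to 34.1 ± 0.477 CPM (log2 0.26, adjusted p = 6.84e-04), and LCORL (0.18), USP7 (0.14) and the deacetylase HDAC2 (0.14) also rose. HDAC1 fell from 119.7 ± 3.22 to 109.8 ± 1.5 CPM (log2 -0.13, adjusted p = 0.00704).

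Of 14 genes that remove H2AK119 ubiquitin or H3K27 methylation or belong to the complexes that do, 2 were called higher and 2 lower (28.6%). Among all tested genes the share was 25.3%. MYSM1, an H2A deubiquitinase, measured 158, 138 and 135 CPM with the additives and 101, 92.9 and 107 CPM in E8 control, a rise of 1.43-fold without overlap (log2 0.52 ± 0.057, adjusted p = 6.39e-06). KDM6B (JMJD3), an H3K27 demethylase, measured 14.0, 13 and 14.9 CPM against 18.6, 22.2 and 19.6 CPM, a fall of 1.44-fold without overlap (log2 -0.53 ± 0.074, adjusted p = 7.76e-05). These were the largest called rise and fall of the list, and they do not stand for their enzyme classes. The H2A deubiquitinases BAP1 and USP16 had log2 fold changes of 0.01 and 0.07 (edgeR adjusted p = 0.811 and 0.328). The H3K27 demethylase KDM6A had 0.04 (adjusted p = 0.435). In the BAP1 deubiquitinase complex, FOXK1 rose (log2 0.28, adjusted p = 0.00202) and ASXL1 fell (log2 -0.27, adjusted p = 2.94e-04).

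A list of 60 developmental regulators known as PRC2 targets in human embryonic stem cells was also counted. It was written from general knowledge, with earlier results of these data known, and not taken from a published set of targets. Its share of calls and its median are therefore descriptions and not an independent test. Of these, 41 stayed under 1 CPM in all libraries and 11 reached 1 CPM in all, and 50 had enough counts to be tested. 3 were called higher and 16 lower (38.0%), beside 25.3% of all tested genes, 12.2% higher and 13.1% lower. The median log2 fold change of the list was -0.735 against 0.003 for all tested genes. The summed level of the 60 genes was 149.9 to 162 CPM with the additives and 267 to 277 CPM in E8 control. IRX2, SOX21, LHX5 and OLIG3 held much of it in E8 control, with means of 69.5, 43.9, 29.6 and 28.1 CPM. With the additives they stood at 27.8, 7.76, 5.73 and 9.14 CPM, while FOXD3 went from 41.6 to 51.9 CPM. The sum therefore mostly describes a few well-counted genes. Low counts make many of the single fold changes imprecise. All tested genes are no background of equal level, as 13557 of those 16505 had a mean of at least 1 CPM.

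The targets that fell include transcription factors of the early nervous system and of the Iroquois family. SOX21 measured 7.32, 8.49 and 7.48 CPM with the additives and 41.8, 46.1 and 43.7 CPM in E8 control (log2 -2.51, adjusted p = 4.92e-13). IRX2 measured 26.7, 30.8 and 26.0 CPM against 67.6, 68.7 and 72.1 CPM (log2 -1.33, adjusted p = 7.02e-11). Both were separated by a wide gap. IRX5, with the largest fall among the targets that reach 1 CPM in each E8 control library, went from 1.70 ± 0.354 to 0.256 ± 0.137 CPM (log2 -2.70, adjusted p = 2.64e-05). The 3 that rose were SIX6, from 7.55 ± 0.136 to 13.6 ± 0.771 CPM (log2 0.85), GBX2, from 9.58 ± 0.446 to 17.3 ± 1.0 CPM (log2 0.85), and FOXD3, which is also active in pluripotent cells, from 41.6 ± 0.943 to 51.9 ± 1.91 CPM (log2 0.32). SIX6 is in the neural plate list as well, so targets of the early nervous system moved in both directions. IRX2, SOX21, OLIG3, GBX2 and FOXD3 were named after their values were seen.

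This list is not separate from lineage markers. 7 of its genes are also in the neural plate list, and 5 of those were called. Without them, 2 of 43 tested genes were called higher and 12 lower (32.6%, beside 25.3% of all tested genes), with a median log2 fold change of -0.687. The rest is not free of regulators of the early nervous system, SOX21 among them. It also holds genes of the mesoderm list (EOMES, GSC, HAND1) and of the endoderm list (SOX17, FOXA2, GATA4, GATA6). CDX2, GATA3, HAND1 and ISL1 are in the trophectoderm and amnion list as well. HAND1, called lower on 16 counts in total, thus enters the target, mesoderm and trophectoderm counts at once. The part of neural plate genes or of H3K27 methylation in these differences was not tested, and no chromatin mark was measured.

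**Figure D5:**
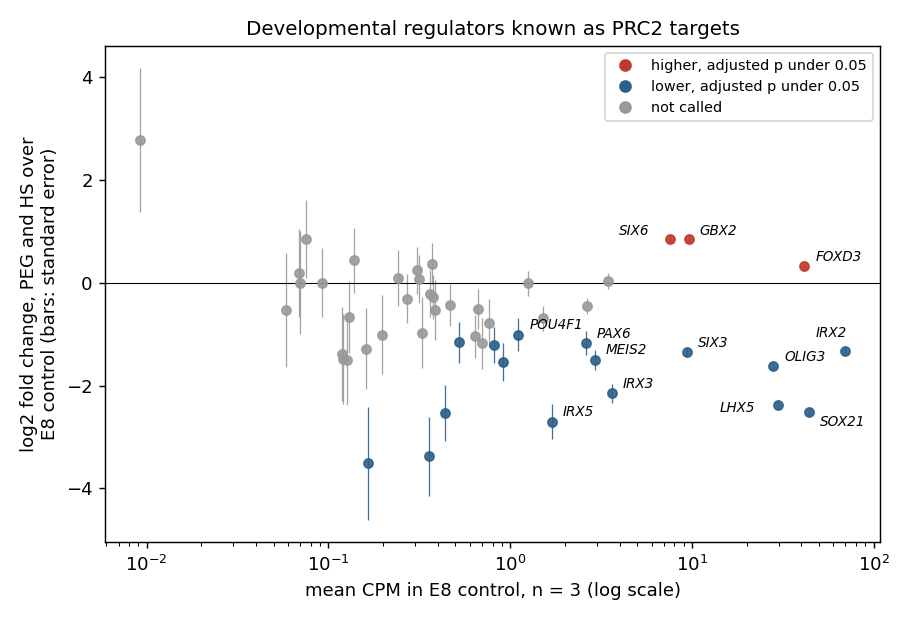
Log2 fold change with its standard error (vertical axis) against the mean CPM in E8 control (horizontal log axis, 3 libraries) for tested developmental regulators known as PRC2 targets, genes called lower in blue, higher in red and not called in grey. 16 called genes lie below 0, among them SOX21 and IRX2, and 3 lie above it, SIX6, GBX2 and FOXD3, while most grey points lie under 1 CPM with wide bars. Of the genes called lower, HAND1, DLX5, NEUROG1, SIX2, MSX2 and MEIS1 also lie under 1 CPM, from 0.164 to 0.916 CPM.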

How the data were processed

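Aggregates of NCRM-1 hiPSCs were profiled by mRNA-seq in 3 libraries with PEG and HS and 3 E8 control libraries. The values used are raw counts per gene, deposited by the authors as 1 file per library. Per the labels and the methods, stranded libraries of polyadenylated RNA were trimmed with Trim Galore 0.6.7 and mapped to GRCh38 with STAR 2.6.1 in an nf-core pipeline. The annotation release, the counting tool and its handling of strand and of multi-mapped reads are not given in the sources used here. The authors tested with DESeq2 after leaving out genes under 10 reads, a filter not applied in the deposited counts.

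Of 19977 identifiers, 19916 matched GENCODE 44, and 1799 had no count in any library. Library totals were 33534183, 28148630 and 33849198 in PEG and HS and 26991279, 32686749 and 36185138 in E8 control. Genes with at least 10 counts in total (16505) were normalized with TMM (factors 0.994 to 1.006) and tested by the quasi-likelihood F-test of edgeR 4.0.16 under R 4.3.3 (two-sided, Benjamini-Hochberg over all tested genes, called at an adjusted p under 0.05). The common biological coefficient of variation was 3.12%, which resolves small differences in well-counted genes, and 34 of the 36 genes had at least 100 counts in each library. CPM used TMM-scaled totals, errors of levels are SD (n = 3), and errors of log2 fold changes are SE, from the log2 fold change and the F statistic. Replicates differed by more than counting noise, so each was kept. Paralog ratios used counts plus 0.5. Families were divided by merged exon length. Shared sequence is the share of 31-base words found in transcripts of other genes.

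The members, role groups, lists, tests and rule for named genes were chosen with earlier results of these data known. The rule gives each library for called members, up to the 16 with the largest absolute log2 fold change (all 13 called here), and for EZH1, EZH2, EED, SUZ12, RING1 and RNF2, and names the largest called rise and fall of each list among genes whose higher medium had at least 1 CPM in every library. Values per library of PCGF2, CBX2, SCMH1, YAF2 and KDM2B were added after they were seen. 219 of 220 listed genes were matched. Alternatives were DESeq2 1.42.0, limma-voom 3.58.1, DESeq2 size factors, library size alone, 2 other filters, the replicate number as a block, a test against 1.5-fold, other lengths and pseudocounts, and each library left out in turn. The fit was tested on simulated data.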

Additional observations from a re-analysis of the deposited data

How the results depend on the processing

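Of the 13 calls, 10 held in all 13 alternatives other than the test against 1.5-fold, and EPOP, LCOR and CBX6 each lost theirs when certain single libraries were left out. No called gene changed direction. The test against a 1.5-fold change called 0 genes higher and 1 lower, AUTS2. Leaving out each library in turn gave 2 to 5 of the 36 called higher (5 without the first E8 control library, when EZH2 and SCMH1 were called at adjusted p = 0.0479 and 0.0476, and 2 without the third) and 8 to 11 called lower, while 19.0% to 22.5% of all genes were called. These fits gave 0 to 1 PRC2 core genes and 0 to 1 endoderm markers (1 without the third E8 control library). 5 genes not called were called in some alternative, the others being PCGF2 without the third PEG and HS library (0.0257), CBX2 without the second (0.0473) and under the block, and KDM2B with library size alone (0.0389). Differences close to 0 changed sign with a library left out: the RBBP4/RBBP7 ratio (-0.02 to 0.02), the PCGF5/PCGF3 ratio (-0.12 to 0.05), the shares of PCGF1 (-0.325 to 0.481 points) and PCGF5 (-0.0721 to 0.0776 points), and the log2 fold changes of EED (-0.07 to 0.05), SUZ12 (-0.01 to 0.04), RBBP4 (-0.01 to 0.04), PHF1 (-0.02 to 0.07), PHF19 (-0.00 to 0.04), PCGF1 (-0.05 to 0.17) and PCGF5 (-0.05 to 0.11), and that of EED with filterByExpr (-0.00). The cause was not tested. Same-numbered libraries did not deviate together (correlations -0.01471, 0.02772 and 0.05958), so the numbers do not pair the libraries. With the replicate number as a block 4444 genes were called, 26.9%, with 3 of the 36 higher and 11 lower, the added one being CBX2 (0.0455), and the paired ratio differences had the same sizes, at an exact sign-flip permutation p of at least 0.250. Depth limits YAF2 and CBX8.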

Other observations

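The list of 23 tested Trithorax and COMPASS genes holds mainly subunits of complexes that methylate lysine 4 of histone H3, with related factors of other activity, among them ASH1L and NSD1, which methylate lysine 36, and the H3K27 demethylase KDM6A, which was also counted among the erasers. Of the list, 2 rose and 4 fell at the threshold (26.1%, beside 25.3% of all tested genes), with a median log2 fold change of -0.002. ASH2L, a core subunit shared by these complexes, fell most, from 75.7, 80.5 and 75.2 CPM in E8 control to 57.5, 60.4 and 61.1 CPM, without overlap (log2 -0.37 ± 0.038, adjusted p = 3.13e-06, edgeR). The other falls were NCOA6 (log2 -0.28), SETD1B (-0.18) and KMT2C (-0.15). RBBP5, another core subunit, rose from 40.8 ± 0.526 to 45.2 ± 1.53 CPM (log2 0.15, adjusted p = 0.0149, lost without the second PEG and HS library at 0.0616), and PAXIP1 rose (log2 0.12).

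Beside the lists that follow, 25.3% of all tested genes were called, 12.2% higher and 13.1% lower. Among pluripotency markers, 5 of 11 were called higher and 3 lower. NANOG rose from 126 ± 0.610 to 185 ± 1.76 CPM (log2 0.55) and SOX2 fell from 412 ± 11.8 to 273 ± 3.92 CPM (log2 -0.59). Of 26 proliferation genes, 4 were called higher and 2 lower (23.1%), with a summed level of 5534 to 5654 CPM against 5454 to 5491 CPM. RRM2 rose (log2 0.23) and BUB1 fell (log2 -0.35). Of 10 mesoderm markers, KDR was called higher (log2 0.19) and 2 lower, among them TBX6 (log2 -0.48, lost without the third E8 control library, adjusted p = 0.0620), and 0 of 7 tested endoderm markers were called. Among neural plate markers the largest fall was LHX5, from 29.6 ± 1.66 to 5.73 ± 0.880 CPM, and among 9 tested trophectoderm and amnion markers, 5 of which were called lower, TFAP2A, from 6.00 ± 0.230 to 0.603 ± 0.269 CPM. The only neural plate marker called higher was SIX6, from 7.55 ± 0.136 to 13.6 ± 0.771 CPM (log2 0.85).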
